A study of Mus musculus with 24 samples.

Results

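The 10 genes described here encode enzymes of fatty acid synthesis, desaturation and elongation, an enzyme that activates fatty acids and a coat protein of lipid droplets. They are Scd1, Scd2, Fasn, Acaca, Acly, Elovl1, Elovl5, Elovl6, Plin2 and Acsl4. They are a set of genes given by name, and the listed transcript with the most counts on average in 12 epithelial libraries stands for each gene. All 10 had a row and passed the low-count filter, among 14557 gene symbols in the table and 13759 genes tested. The libraries come from mouse lung organoids, small cultures that grow in Matrigel, a basement membrane gel. In 6-well plates, 200000 lung cells selected for EpCAM, from female WT (wild-type) C57BL6 mice, were seeded with 200000 cells of CCL206, a mouse lung fibroblast line present in all wells. Nylon 6,6 fibers of 12 by 31 micrometers were mixed into the gel at 12000 or 30000 fibers a well (equal, per the labels, to 2000 or 5000 fibers in smaller wells), and control wells received none. EpCAM is a surface molecule of epithelial cells, and after 7 days magnetic sorting on it gave the epithelial fraction described here, with 4 libraries per dose from mouse 1 to mouse 4. The study asked how the fibers act on these organoids.

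In fatty acid synthesis, citrate is cleaved to acetyl-CoA, which is carboxylated to malonyl-CoA and built into palmitate. Elongases then lengthen the chain, desaturases make it unsaturated, and the products enter membrane phospholipids or the triglyceride of lipid droplets. The transcription factor SREBP1, encoded by Srebf1, drives most of these genes, and the sterol-sensing liver X receptor (LXR) can induce both Srebf1 and Scd1. In the lung, alveolar type 2 cells use the pathway to make surfactant lipid.

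Promoter windows, from 250 bases before to 50 bases after a start site, were in the RefSeq promoter table (GRCm38.p6) for 8 of the 10 genes. Scd1 and Scd2 were not matched. A stretch from 150 bases before to 30 bases after the start is shown for Fasn (chr11:120824518-120824697, minus strand) and Plin2 (chr4:86670030-86670209, minus strand), which were higher at 12000 fibers, and for Elovl6 (chr3:129532236-129532415, plus strand), which was lower at that dose. Capitals mark CCAAT or CACGTG on either strand, so that ATTGG is CCAAT read on the opposite strand.
Fasn: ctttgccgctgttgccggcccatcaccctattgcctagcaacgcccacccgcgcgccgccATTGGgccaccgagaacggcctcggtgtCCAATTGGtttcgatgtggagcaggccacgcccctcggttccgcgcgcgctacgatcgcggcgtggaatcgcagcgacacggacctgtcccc
Plin2: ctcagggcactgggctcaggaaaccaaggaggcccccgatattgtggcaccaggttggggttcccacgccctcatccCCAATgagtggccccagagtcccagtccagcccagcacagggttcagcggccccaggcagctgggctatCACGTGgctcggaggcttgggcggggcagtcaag
Elovl6: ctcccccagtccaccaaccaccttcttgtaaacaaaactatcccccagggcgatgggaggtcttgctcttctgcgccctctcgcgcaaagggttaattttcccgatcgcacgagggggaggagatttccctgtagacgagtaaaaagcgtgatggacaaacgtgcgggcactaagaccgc

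CCAAT, the core letters of the motif bound by NF-Y, lay in the Fasn window at 3 places, with first bases at -90, -62 and -59 from the start site. The last pair overlaps within the run CCAATTGG. The Plin2 window held CCAAT at -73 and CACGTG, the E-box letters, at -4, and the Elovl6 window held neither motif. Over the whole windows of 300 bases, CCAAT was found for 5 of the 8 genes (Acly, Elovl1, Elovl5, Fasn and Plin2) and in 37.4% of all 32851 promoters of that length. CACGTG was found for Elovl5 and Plin2 and in 7.15% of all promoters. TCACNCCAC, a form of the sterol response element, was in no window of the 8 genes and in 1.24% of all promoters. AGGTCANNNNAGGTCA, the LXR element, was also in no window of the 8 genes, and in 0.0152% of all promoters. Both strands were searched for each motif. The Acaca window belongs to another start site, 22316 bases from that of its representative transcript, a second Elovl1 window with neither motif lies 1608 bases away, and the Plin2 and Elovl5 windows belong to sites 1 base away. The matches describe letters only.

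Scd1 (chr19:44394455-44407709, minus strand, 6 exons) and Scd2 (chr19:44293674-44306864, plus strand, 6 exons) are neighbours that encode closely related enzymes, and their transcripts share a run of 147 identical coding bases. It is shown because reads of up to 74 bases that fall within it cannot be assigned to either gene by sequence. It spans bases 823 to 969 of the Scd1 transcript and 1246 to 1392 of the Scd2 transcript (GENCODE M21, GRCm38).
Scd1 and Scd2: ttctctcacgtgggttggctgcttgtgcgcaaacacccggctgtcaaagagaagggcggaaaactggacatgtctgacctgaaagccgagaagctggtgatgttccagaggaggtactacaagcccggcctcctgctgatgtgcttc

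Words of 30 bases common to both transcripts numbered 261, out of 4794 different words in Scd1 and 5426 in Scd2. Elovl1, Elovl5 and Elovl6 shared no word of 30 bases with each other.

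The libraries at 30000 fibers stood apart from the other epithelial libraries in depth and in several measures of RNA content. Summed transcript counts ran from 21222034 to 28232472 in controls, from 20103389 to 31119155 at 12000 fibers and from 6767842 to 9234052 at 30000 fibers. Mitochondrial genes took between 5.20% and 7.77% of the representative counts in control libraries, between 5.33% and 6.91% with 12000 fibers and between 14.3% and 16.3% with 30000 fibers. Ribosomal protein genes took between 0.817% and 0.979% of the same counts in controls and between 0.932% and 0.988% with 12000 fibers. With 30000 fibers they took between 4.15% and 4.60%. A further measure covered 2790 genes whose isoform with the second most counts ends at least 500 bases upstream of that with the most. The log2 level of the upstream isoform relative to the other shifted by -0.345 to -0.276 in the libraries at 30000 fibers. All other libraries lay between -0.00885 and 0.0219. The EpCAM gene itself fell at both doses: Epcam had 604.4 to 743.4 CPM in controls, 468.1 to 497.4 CPM at 12000 fibers and 184.8 to 262.5 CPM at 30000 fibers, where CPM are counts per 1000000 of the scaled library total. Of 10 pan-epithelial markers, 2 were higher and 6 lower at 12000 fibers than in controls, 0 were higher and 9 lower at 30000 fibers than in controls, and all 10 were lower at 30000 than at 12000 fibers. Their summed level lay between 6589 and 7636 CPM for controls, between 6748 and 7558 CPM for 12000 fibers and between 3713 and 4409 CPM for 30000 fibers. Of 16 fibroblast markers tested, 14 were higher at 12000 fibers and 15 at 30000 fibers than in controls, 8 were higher at 30000 than at 12000 fibers, and none was lower in these comparisons. Their summed level lay between 8589.9 and 13374 CPM for controls, between 15490.2 and 16872 CPM for 12000 fibers and between 14104 and 17069 CPM for 30000 fibers. Fibronectin (Fn1) made up 70.2% to 88.4% of that sum in each library, and the other 15 markers summed to between 996.0 and 2332 CPM for controls, between 2829 and 3189 CPM for 12000 fibers and between 3828 and 4757 CPM for 30000 fibers. Of 20 fibroblast markers listed 18 had a row, and none of these was at 0 in all libraries of a group. Every transcript with a row had at least 60 counts over the 12 epithelial libraries, so markers with fewer counts could not appear. All 10 airway basal markers were lower at both doses, and so were 8 of 10 club and goblet markers, with 1 (Scgb1a1) higher at 30000 fibers, while 9 of 9 ciliated markers were lower at 12000 fibers and 7 of 9 at 30000 fibers. Of 9 alveolar type 1 markers 0 were higher at either dose, with 3 lower at 12000 fibers and 5 at 30000 fibers. Of 4 macrophage markers tested 2 were higher and 0 lower at each dose. Over all genes 18.7% were higher and 19.3% lower at 12000 fibers, and 32.2% and 33.4% at 30000 fibers. Between 30000 and 12000 fibers the shares were 28.3% and 27.1%. Of 14 alveolar type 2 markers 3 were higher at 12000 fibers, close to the share of all genes. At 30000 fibers 7 were higher and 2 lower. In a fit with a row for every transcript in place of 1 per gene, 1 was higher and 0 lower at 12000 fibers, and 10 were higher and 0 lower at 30000 fibers, where the median log2 fold change of all genes was 0.31. The summed level of the alveolar type 2 markers lay between 2332 and 4652 CPM for controls, between 4439 and 7765 CPM for 12000 fibers and between 5332 and 7994 CPM for 30000 fibers, and none of them was at 0 in all libraries of a group. In bulk RNA, fewer cells of a type and less RNA per cell cannot be told apart, and the part of these shifts in the changes described below was not tested.

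At 12000 fibers, 6 of the 10 genes rose and 1 fell relative to control. Scd1 rose most, Fasn, Plin2, Acaca, Scd2 and Acsl4 rose by smaller amounts, and Elovl6 fell. Over all genes, 38.0% passed the threshold in this comparison, 18.7% higher and 19.3% lower (edgeR quasi-likelihood test, Benjamini-Hochberg adjusted p under 0.05). The share of the 10 genes called higher was thus above the background and the share called lower below it. This describes a list of named genes, chosen with earlier results of these data known, and is not a test. The median log2 fold change was 0.34 over the 10 genes and -0.0026 over all genes. For 7 of the 10 genes the 4 libraries at 12000 fibers did not overlap the 4 controls, as was the case for 36.3% of all genes.

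At 30000 fibers, 4 genes were higher than in control (Scd1, Elovl1, Plin2 and Acaca) and 3 were lower (Scd2, Elovl5 and Acly). Over all genes, 65.6% passed the threshold in this comparison, 32.2% higher and 33.4% lower, so that 7 calls among 10 genes are close to the background. The median log2 fold change was 0.17 over the 10 genes and -0.026 over all genes. For 5 genes the groups did not overlap, against 58.1% of all genes. When every listed transcript entered the fit in place of 1 per gene, the median of all genes shifted to 0.31. The split of all genes then became 6932 higher and 2429 lower, beside 4434 and 4592 with 1 transcript per gene, and that of the 10 genes 8 higher and 0 lower. Of the 3 genes called lower, Scd2 was then -0.044 (adjusted p = 0.632) and Elovl5 0.070 (adjusted p = 0.480). Acly was called higher, at 0.16 (adjusted p = 0.0442). Set against the median of that fit, the values were -0.36 for Scd2, -0.24 for Elovl5 and -0.15 for Acly. Both fits use the same counts for these transcripts. Values set against the median, here and below, thus largely restate the first fit and are no separate check.

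Between the doses, Elovl6 and Elovl1 were higher at 30000 than at 12000 fibers, and Scd2 and Plin2 were lower. These 4 calls among 10 genes stand beside 55.4% of all genes, 28.3% higher and 27.1% lower. With every transcript in the fit, all genes split into 6882 higher and 1358 lower, beside 3893 and 3728, and the 10 genes into 4 higher and 1 lower. The groups did not overlap for 4 genes (Elovl1, Elovl6, Scd2 and Acly), against 52.3% of all genes. The mean was highest at 12000 fibers for 6 genes (Scd1, Scd2, Fasn, Acaca, Plin2 and Acsl4), at 30000 fibers for Elovl1 and Elovl6, and in controls for Acly and Elovl5.

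**Figure D1:**
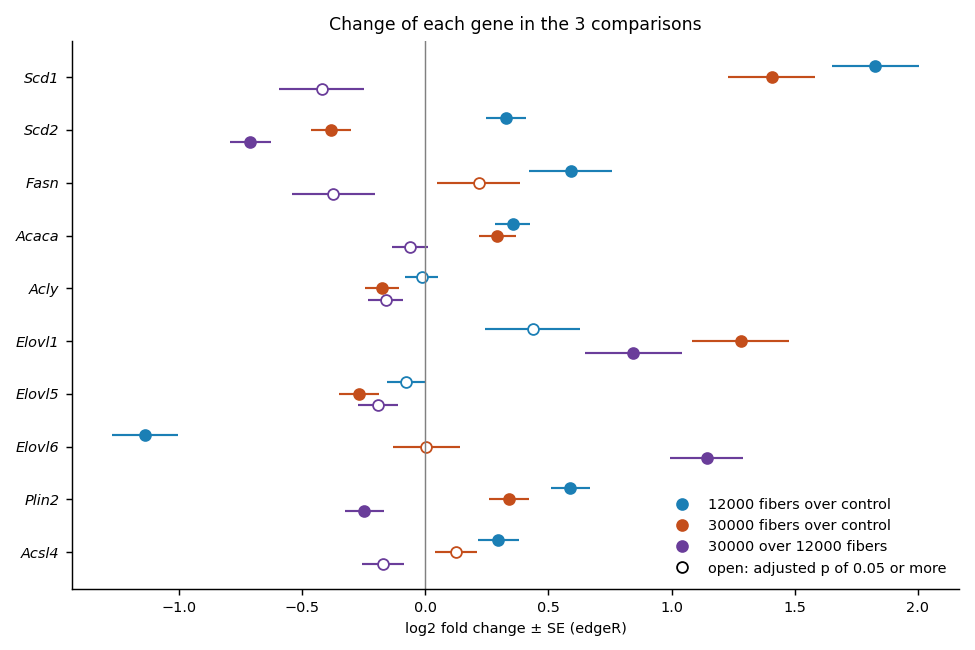
Log2 fold changes with their standard errors (horizontal axis, edgeR) of the 10 genes (vertical axis) for 12000 fibers over control, 30000 fibers over control and 30000 over 12000 fibers; open points have an adjusted p of 0.05 or more. Scd1 lies far to the right in both comparisons with control (1.83 and 1.41), and Elovl6 lies at -1.14 at 12000 fibers and near 0 at 30000 fibers.

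Scd1 and Scd2 encode stearoyl-CoA desaturases, which turn saturated acyl-CoAs into the monounsaturated oleate and palmitoleate forms. In mice 1 to 4, Scd1 had 2532, 4189.9, 4920.1 and 3840.2 CPM in controls, 14174, 16234.5, 11799.8 and 12711 CPM at 12000 fibers, and 12216, 9365, 9222 and 10217 CPM at 30000 fibers. Every library with fibers lay above every control, and the highest values were at 12000 fibers in each mouse. The log2 fold change was 1.83 ± 0.18 (SE; adjusted p = 4.20e-06) at 12000 fibers and 1.41 ± 0.18 (adjusted p = 9.66e-06) at 30000 fibers, higher than the control of the same mouse in 4 of 4 mice each time. Between 30000 and 12000 fibers the log2 fold change was -0.42 ± 0.17 (adjusted p = 0.0534), lower in 4 of 4 mice. This passed the threshold without the 12000-fiber library of mouse 3 (adjusted p = 0.038) or the 30000-fiber library of mouse 1 (adjusted p = 0.0299). With the mouse as a block it did not (-0.41, adjusted p = 0.134), nor in the fit over every transcript (-0.077, adjusted p = 0.758). Among 13759 genes ranked by CPM, Scd1 was number 11 in controls, number 2 at 12000 fibers and number 8 at 30000 fibers. It took 0.387%, 1.37% and 1.03% of the scaled total in the same order of doses.

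Scd2 had 1691, 1840.5, 1720.0 and 1742 CPM in controls, 2171, 2569, 1935 and 2095 CPM at 12000 fibers, and 1452, 1388, 1246 and 1275 CPM at 30000 fibers. The 3 groups did not overlap, with 12000 fibers on top and 30000 fibers at the bottom. On the log2 scale the fold change was 0.33 ± 0.082 at 12000 fibers (adjusted p = 0.00365), -0.38 ± 0.082 at 30000 fibers (adjusted p = 4.08e-04) and -0.71 ± 0.083 between 30000 and 12000 fibers (adjusted p = 4.91e-07). In the fit over every transcript the value at 30000 fibers was -0.044 (adjusted p = 0.632). Srebf1, the regulator of this pathway, followed the same order of groups as Scd2. None of the other genes described here had that order of means. Scd1, Fasn, Acaca, Elovl1, Plin2 and Acsl4 had their lowest mean in controls, and Elovl6 at 12000 fibers. Acly and Elovl5 had their highest mean in controls. Srebf1 stood at 209.4 to 228.4 CPM in controls, 286.3 to 354.9 CPM at 12000 fibers and 151.0 to 189.6 CPM at 30000 fibers, with no overlap. Its log2 fold change was 0.52 ± 0.079 at 12000 fibers (adjusted p = 3.32e-05) and -0.38 ± 0.083 at 30000 fibers (adjusted p = 4.17e-04), the last of which was -0.045 (adjusted p = 0.648) in the fit over every transcript.

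Within a library the ratio of Scd1 to Scd2 counts needs no scaling between libraries. It was 1.498, 2.28, 2.86 and 2.20 in the controls of mice 1 to 4, 6.53, 6.32, 6.10 and 6.07 at 12000 fibers, and 8.42, 6.75, 7.40 and 8.01 at 30000 fibers. No group overlapped another, and the lowest ratio at 30000 fibers was above the highest at 12000 fibers. With counts summed over all listed transcripts the range was 1.26 to 2.39 for controls, 5.01 to 5.43 for 12000 fibers and 6.01 to 7.62 for 30000 fibers. The ratios were chosen after the values had been seen and carry no test.

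**Figure D2:**
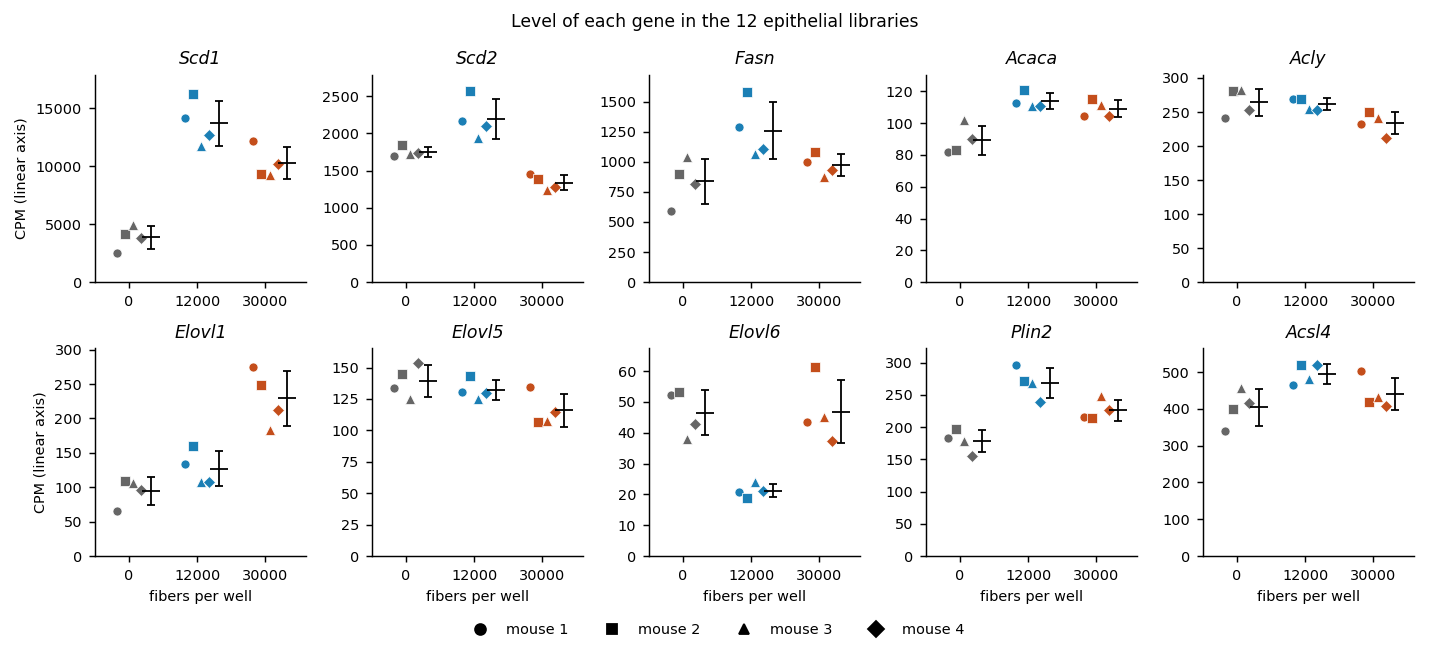
CPM (vertical axes, linear from 0) of the 10 genes in each of the 12 epithelial libraries against fibers per well (horizontal axes), with symbols for mouse 1 to mouse 4; the bar beside each group is its mean with the SD (n = 4). Scd1 separates all libraries with fibers from the controls, and Elovl6 dips at 12000 fibers to 18.9 to 24.0 CPM.

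Fasn encodes fatty acid synthase, which assembles palmitate (chr11:120805846-120824547, minus strand, 43 exons). It had 588.6, 898.9, 1041 and 817 CPM in the controls of mice 1 to 4, 1287, 1578, 1062 and 1109 CPM at 12000 fibers, and 999.0, 1085, 875 and 930.0 CPM at 30000 fibers. The lowest value at 12000 fibers was only just above the highest control, and the values at 30000 fibers lay within or just above the range of the controls. This gave a log2 fold change of 0.59 ± 0.17 at 12000 fibers (adjusted p = 0.0159; higher in 4 of 4 mice), 0.22 ± 0.17 at 30000 fibers (adjusted p = 0.277; 95% interval -0.11 to 0.55) and -0.37 ± 0.17 between 30000 and 12000 fibers (adjusted p = 0.0806; lower in 4 of 4 mice). The value at 30000 fibers was 0.56 (adjusted p = 0.0196) in the fit over every transcript, which is 0.24 above the median of all genes in that fit.

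Acaca encodes acetyl-CoA carboxylase 1, which makes malonyl-CoA at the committed step of the pathway. It had 81.7 to 101.9 CPM in controls, 110.8 to 121.1 CPM at 12000 fibers and 104.6 to 115.35 CPM at 30000 fibers. Both fiber groups lay above all controls and overlapped each other. The fitted log2 fold change was 0.35 ± 0.070 at 12000 fibers (adjusted p = 4.97e-04) and 0.29 ± 0.075 at 30000 fibers (adjusted p = 0.00191). Between 30000 and 12000 fibers it was -0.062 ± 0.074 (adjusted p = 0.492, 95% interval -0.21 to 0.083). In the fit over every transcript that value was 0.28 and called higher (adjusted p = 0.00259), where the median of all genes was 0.33.

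Acly encodes ATP citrate lyase, which cleaves citrate to cytosolic acetyl-CoA. It had 241.7 to 281.8 CPM in controls, 252.7 to 269.5 CPM at 12000 fibers and 212.1 to 250.5 CPM at 30000 fibers. The first 2 groups covered the same range, and the libraries at 30000 fibers lay below all those at 12000 fibers. The log2 fold change was -0.015 ± 0.067 at 12000 fibers (adjusted p = 0.889; 95% interval -0.15 to 0.12), -0.18 ± 0.069 at 30000 fibers (adjusted p = 0.0305) and -0.16 ± 0.069 between 30000 and 12000 fibers (adjusted p = 0.0534). The call at 30000 fibers was lost without the control library of mouse 2 or mouse 3 or the 30000-fiber library of mouse 1 or mouse 4 (adjusted p = 0.0852, 0.0899, 0.060 and 0.119). It turned to 0.16 (adjusted p = 0.0442) in the fit over every transcript. With the mouse as a block, the change between the doses passed the threshold as lower (-0.16, adjusted p = 0.0331). In the fit over every transcript it was called higher (0.18, adjusted p = 0.0285), where the median of all genes was 0.33.

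Elovl6 encodes the elongase that turns palmitate into stearate (chr3:129532386-129638495, plus strand, 5 exons). It had 52.2, 53.2, 37.9 and 42.8 CPM in the controls of mice 1 to 4, 20.8, 18.9, 24.0 and 21.2 CPM at 12000 fibers, and 43.5, 61.4, 45.0 and 37.4 CPM at 30000 fibers. All 4 libraries at 12000 fibers lay below every other library, while those at 30000 fibers covered the range of the controls. On the log2 scale the fold change was -1.14 ± 0.13 at 12000 fibers (adjusted p = 4.57e-06; lower in 4 of 4 mice), 0.0042 ± 0.14 at 30000 fibers (adjusted p = 0.980; 95% interval -0.26 to 0.27) and 1.14 ± 0.15 between 30000 and 12000 fibers (adjusted p = 4.75e-06; higher in 4 of 4 mice). In the fit over every transcript the value at 30000 fibers was 0.34 (adjusted p = 0.0260), which is 0.028 above the median of all genes there. Raw counts of the transcript lay between 291 and 547 for controls, between 142 and 232 for 12000 fibers and between 111 and 174 for 30000 fibers.

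Elovl1 encodes the elongase of saturated and monounsaturated very long chains (chr4:118428093-118432953, plus strand, 8 exons). It had 64.8, 109, 106 and 96.3 CPM in the controls of mice 1 to 4, 134, 159.6, 108 and 107 CPM at 12000 fibers, and 274, 248, 183 and 212 CPM at 30000 fibers. All libraries at 30000 fibers were above all others, and the libraries of mice 3 and 4 at 12000 fibers were at the top of the control range. This gave a log2 fold change of 0.44 ± 0.19 at 12000 fibers (adjusted p = 0.102), higher in 4 of 4 mice. The adjusted p at that dose was 0.0321 with DESeq2. The log2 fold change was 1.28 ± 0.20 at 30000 fibers (adjusted p = 1.80e-04) and 0.84 ± 0.20 between 30000 and 12000 fibers (adjusted p = 0.00375). In the fit over every transcript these 2 values were 1.62 and 1.19. Of the 5 other isoforms in that fit, 4 were higher and 0 lower at 30000 fibers than in controls (-0.41 to 1.63). Between 30000 and 12000 fibers 3 were higher and 1 lower (-0.89 to 1.21).

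Elovl5 encodes the elongase of polyunsaturated chains. It had 124.8 to 153.3 CPM in controls, 125.2 to 143.1 CPM at 12000 fibers and 106.9 to 134.8 CPM at 30000 fibers, and all 3 groups overlapped. The fitted log2 fold change was -0.077 ± 0.077 at 12000 fibers (adjusted p = 0.462; 95% interval -0.23 to 0.073), -0.27 ± 0.082 at 30000 fibers (adjusted p = 0.00676; lower in 3 of 4 mice) and -0.19 ± 0.082 between 30000 and 12000 fibers (adjusted p = 0.0526). The value at 30000 fibers was 0.070 (adjusted p = 0.480) in the fit over every transcript and -0.18 (adjusted p = 0.0903) with counts summed over transcripts. With the mouse as a block, the change between the doses passed the threshold (-0.19, adjusted p = 0.0418). In the fit over every transcript it was 0.15 (adjusted p = 0.125).

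Count ratios between the elongase genes within a library likewise need no scaling. The ratio of Elovl6 to Elovl5 lay between 0.279 and 0.390 for controls, between 0.132 and 0.192 for 12000 fibers and between 0.323 and 0.574 for 30000 fibers. The ratio of Elovl1 to Elovl5 lay between 0.485 and 0.853 for controls, between 0.828 and 1.115 for 12000 fibers and between 1.71 and 2.32 for 30000 fibers. For the ratio with Elovl6 the 12000-fiber libraries stood below all others, and for that with Elovl1 the 30000-fiber libraries stood above all others. These ratios too were chosen after the values had been seen, and no test was made of them.

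**Figure D3:**
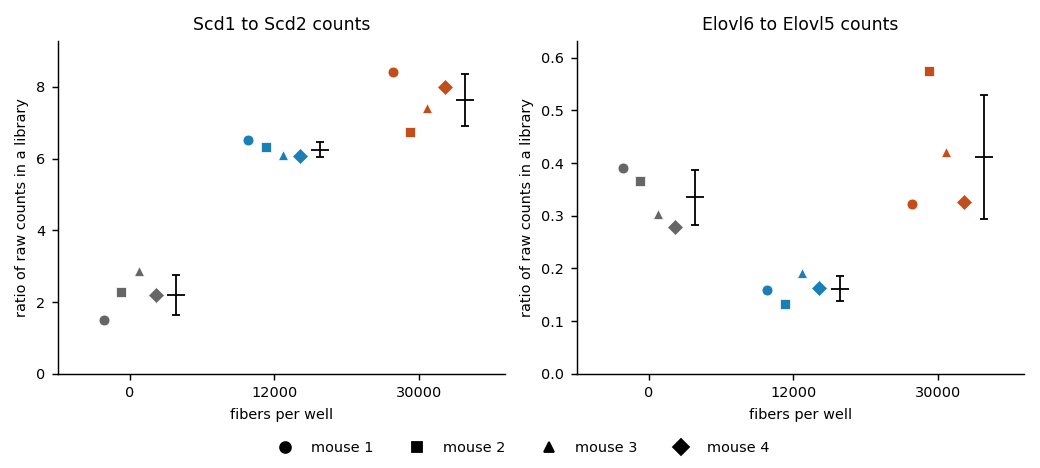
Ratio of raw counts in a library (vertical axes, linear from 0) of Scd1 to Scd2 (left) and of Elovl6 to Elovl5 (right) against fibers per well, with symbols for mouse 1 to mouse 4 and the mean with the SD (n = 4) beside each group. The Scd1 ratio is above 6 in every library with fibers and below 3 in every control, and the Elovl6 ratio is below 0.2 in every library at 12000 fibers.

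Plin2 encodes perilipin 2, which coats lipid droplets in most cell types (chr4:86656565-86670060, minus strand, 8 exons). It had 182.8, 197.4, 178.9 and 155.7 CPM in the controls of mice 1 to 4, 296.5, 271.0, 267.6 and 238.7 CPM at 12000 fibers, and 215.5, 213.4, 249 and 226.8 CPM at 30000 fibers. Both fiber groups lay above all controls, and they overlapped each other through the library of mouse 3 at 30000 fibers. The log2 fold change was 0.59 ± 0.079 at 12000 fibers (adjusted p = 8.71e-06) and 0.34 ± 0.081 at 30000 fibers (adjusted p = 0.00104), higher in 4 of 4 mice each time. Between 30000 and 12000 fibers it was -0.25 ± 0.081 (adjusted p = 0.0135; lower in 4 of 4 mice), and the adjusted p was 0.0574 without the 12000-fiber library of mouse 1. With counts summed over transcripts the value at 30000 fibers over control was -0.077 (adjusted p = 0.408), and in the fit over every transcript that between the doses was 0.097 (adjusted p = 0.299).

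Acsl4 encodes a long-chain acyl-CoA synthetase with a preference for arachidonate and other polyunsaturated fatty acids. It had 339 to 458 CPM in controls, 464 to 518.9 CPM at 12000 fibers and 409 to 503 CPM at 30000 fibers. The libraries at 12000 fibers lay just above all controls, and those at 30000 fibers overlapped both other groups. On the log2 scale the fold change was 0.30 ± 0.084 at 12000 fibers (adjusted p = 0.00862), 0.13 ± 0.085 at 30000 fibers (adjusted p = 0.202; 95% interval -0.041 to 0.29) and -0.17 ± 0.085 between 30000 and 12000 fibers (adjusted p = 0.0969). The value at 30000 fibers was 0.47 (adjusted p = 3.21e-05) in the fit over every transcript, which is 0.15 above the median of all genes there, and 0.26 (adjusted p = 0.0177) with summed counts.

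Divided by transcript length, the levels in controls ran from Scd1, with 801 ± 207 CPM per kb (SD, n = 4), and Scd2, with 320.5 ± 11.9, down to Acaca, with 9.37 ± 0.974, and Elovl6, with 7.82 ± 1.25. Between them came Plin2 (94.6 ± 9.15), Fasn (83.2 ± 18.8), Acsl4 (76.5 ± 9.31), Acly (59.7 ± 4.53), Elovl1 (52.0 ± 11.2) and Elovl5 (50.0 ± 4.50). Plin2, Fasn and Acsl4 overlapped in range as neighbours in this order, as did Acly, Elovl1 and Elovl5, and Acaca and Elovl6. At 12000 fibers Scd1 reached 2841 ± 400.5 CPM per kb and was number 9 of 13669 genes with a known length, against number 24 in controls. Elovl6 fell to 3.57 ± 0.351 CPM per kb at 12000 fibers, against 7.82 ± 1.25 in controls.

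The table lists several transcripts for each of the 10 genes, and 50 of them could be tested one by one. Isoforms share exons, and the same reads may be counted for several of them. At 12000 fibers, 27 of the 50 transcripts were higher and 4 lower than in controls, where 14.8% of all 67490 transcripts tested were higher and 14.8% lower, and 39 of the 40 isoforms other than the representative had its sign. All 7 other Plin2 isoforms were higher (log2 fold changes 0.52 to 0.71), and all 3 other Elovl6 isoforms were lower (-1.24 to -1.19). At 30000 fibers, 20 transcripts were higher and 12 lower, where 30.2% of all transcripts were higher and 33.3% lower, and 21 of the 40 other isoforms had the sign of the representative.

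The isoforms that parted from their representative at 30000 fibers were mostly those ending upstream of it. Of 30 isoforms ending at least 500 bases upstream, 26 had a lower log2 fold change than their representative, and the median difference was -0.74. For the remaining isoforms the median difference was -0.042. Apart from those of Plin2, these held 84.5% to 99.3% of the counts of their representative in controls. They may count the same reads, so their small difference does not show that the change depends on the 3′ end. At 12000 fibers 14 of the 30 upstream isoforms were lower, with a median difference of 0.0096. The representative transcript of Plin2 was higher at 30000 fibers than in controls (0.68, adjusted p = 2.39e-08 with edgeR in this fit). Of its 7 other isoforms 6 were lower, 1 of which ends only 342 bases upstream (-0.40), and the isoform that ends downstream of it had a log2 fold change of 0.036, which was not called. This downstream isoform averaged 28.6% of the counts of its representative in controls and 18.2% at 30000 fibers. An Scd1 isoform ending 3538 bases upstream rose from 11.1% to 19.3%. The same libraries carried the shift away from the upstream isoform across 2790 genes given above. In those genes the upstream isoform is also that with fewer counts, so position and level cannot be told apart. The part of that shift in the 30000-fiber values was not tested.

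**Figure D4:**
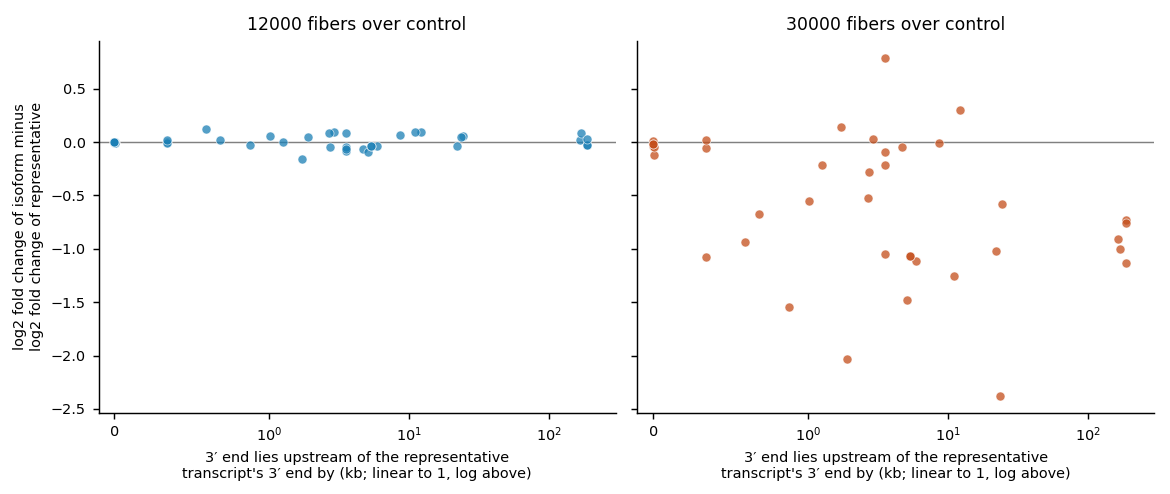
Log2 fold change of each other isoform minus that of its gene's representative transcript (vertical axes) against how far upstream its 3′ end lies (horizontal axes, kb, linear to 1 and logarithmic above), for 12000 fibers over control (left) and 30000 fibers over control (right). The Plin2 isoform that ends downstream of its representative is not drawn. The points stay near 0 at 12000 fibers, and most of those ending upstream lie below 0 at 30000 fibers. The median is -0.74 for isoforms ending at least 500 bases upstream.

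Other lipid genes were grouped into 9 lists, none of which holds any of the 10 genes. The lists too were chosen with earlier results of these data known, so their counts are descriptions and not tests. Over all genes, 18.7% were higher and 19.3% lower at 12000 fibers. At that dose the list of glycerolipid synthesis and lipid droplets had 10 of 24 tested genes higher and 1 lower, with a median log2 fold change of 0.26. The higher genes included Lpcat3 (0.63 ± 0.085), which places polyunsaturated chains into phospholipids and is an LXR target. Lpin2 (0.49 ± 0.079), a phosphatidate phosphatase, and Plin3 (0.32 ± 0.059), another droplet coat gene, were also among them. In the list named droplet lipolysis, 3 of 6 genes were higher and 1 lower. The triglyceride lipase gene Pnpla2 (0.45 ± 0.064) and Abhd5 (0.37 ± 0.12) rose, and the hormone-sensitive lipase gene Lipe fell (-0.61 ± 0.10). Lpl was also higher (0.98 ± 0.25), but it encodes lipoprotein lipase, a secreted enzyme that does not act on droplets. Abhd5 lost its call without the control library of mouse 4 or the 12000-fiber library of mouse 1 (adjusted p = 0.0645 and 0.0602).

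At 12000 fibers, 3 of 14 genes of fatty acid synthesis and its carbon supply were higher and 4 lower. Mid1ip1, a partner of acetyl-CoA carboxylase, rose (0.47 ± 0.071), and the acetyl-CoA synthetase genes Acss1 (-0.94 ± 0.15) and Acss2 (-1.12 ± 0.17) and G6pdx, a source of NADPH (-0.57 ± 0.078), fell. Of 18 lipogenic regulators 2 were higher, Srebf1 and Ppargc1a, and 6 lower, among them Srebf2 (-0.39 ± 0.065), the regulator of cholesterol synthesis. Of 13 genes of elongation and desaturation 4 were higher, among them Hacd1 (0.89 ± 0.15), Fads3 (0.63 ± 0.11) and Degs1 (0.31 ± 0.085), and 2 lower, among them Fads2 (-0.36 ± 0.097), the desaturase of polyunsaturated synthesis. Of 14 acyl-CoA synthetases and thioesterases 4 were higher and 5 lower, of 21 fatty acid oxidation genes 6 and 2, and of 7 uptake and binding genes 0 and 1. The medians of these 8 lists lay between -0.049 and 0.26, beside -0.0026 over all genes, of which 18.7% were higher and 19.3% lower.

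Of 5 LXR sterol export genes 3 were higher and 1 lower at 12000 fibers, beside 18.7% and 19.3% of all genes. Their median log2 fold change was 1.98. Abca1, the sterol exporter, had 372.8, 411.4, 371.5 and 408.1 CPM in mice 1 to 4 at 12000 fibers, against 43.8, 45.1, 62.5 and 65.4 CPM in controls. Its log2 fold change was 2.85 ± 0.15 (adjusted p = 3.05e-08). At 30000 fibers it had 188.1, 127.0, 179.0 and 182.7 CPM, between the other groups and apart from both, with log2 fold changes of 1.64 ± 0.15 over control (adjusted p = 4.69e-07) and -1.21 ± 0.14 over 12000 fibers (adjusted p = 8.52e-06).

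At 30000 fibers, the elongation and desaturation list had 6 of 13 genes higher and 1 lower than in controls, and 8 and 0 with every transcript in the fit. Over all genes 32.2% were higher and 33.4% lower, and with every transcript 6932 and 2429 of 13842. Hacd1, a dehydratase of the elongation cycle, had 29.0, 32.1, 34.7 and 28.1 CPM in mice 1 to 4 at 30000 fibers, against 4.17, 5.06, 4.56 and 4.55 CPM in controls. All 4 values were far above all controls, with a log2 fold change of 2.75 ± 0.14 (adjusted p = 1.82e-12). Degs1, the desaturase that makes ceramide from dihydroceramide, had 160.7 to 218.0 CPM at 30000 fibers, against 72.2 to 92.1 CPM in controls (1.16 ± 0.088). Hacd2 (0.78 ± 0.11) and Tecr (0.49 ± 0.071), which act in the same elongation cycle, also rose. Elovl1 was higher beside these genes of the cycle, while Elovl5 was lower and Elovl6 had a value of 0.0042 ± 0.14.

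Droplet and oxidation genes were mixed at 30000 fibers. Of 24 glycerolipid and droplet genes 4 were higher, with Hilpda, an inhibitor of droplet lipolysis, at 1.44 ± 0.14, and 6 lower, with Plin3 at -0.43 ± 0.065 and the choline kinase gene Chka at -0.60 ± 0.081. Plin3 was -0.095 (adjusted p = 0.253) in the fit over every transcript, where the list had 13 higher and 2 lower. Of 6 genes in the lipolysis list 4 were higher, Lpl among them, and 1 lower. Of 21 oxidation genes 10 were higher and 4 lower (16 and 2 with every transcript). Of 7 uptake and binding genes 3 were higher and 1 lower, with the acyl-CoA binding protein gene Dbi at 1.47 ± 0.070. Of 18 regulators 4 were higher and 8 lower (9 and 3 with every transcript), with Srebf2 at -1.32 ± 0.071 and Ppargc1a at 1.41 ± 0.13. Of 14 synthesis and carbon supply genes 2 were higher and 5 lower (7 and 3 with every transcript), with the mitochondrial citrate carrier gene Slc25a1 at -0.62 ± 0.086, and of 14 acyl-CoA synthetases and thioesterases 5 were higher and 8 lower (5 and 3 with every transcript). Over all genes 32.2% were higher and 33.4% lower with 1 transcript per gene. With every transcript in the fit, 6932 of 13842 genes were higher and 2429 lower, and the list counts from that fit stand beside these.

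Between 30000 and 12000 fibers the droplet list had 2 genes higher and 10 lower of 24, with a median of -0.25 beside -0.012 over all genes. Of all genes 28.3% were higher and 27.1% lower, and with every transcript in the fit 6882 and 1358 of 13842. The droplet list then had 9 higher and 5 lower, and its median relative to that of all genes was -0.24. Plin3 (-0.76 ± 0.065), Chka (-0.78 ± 0.081) and Lpin2 (-0.61 ± 0.082) were lower, and Hilpda (0.96 ± 0.14) was higher. Of 5 LXR sterol export genes 3 were lower and none higher (2 and 1 with every transcript). Srebf1 was lower (-0.91 ± 0.083, adjusted p = 1.60e-08), as was Srebf2 (-0.93 ± 0.071). These comparisons share their 12000-fiber libraries or controls with those above and are not independent of them.

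**Figure D5:**
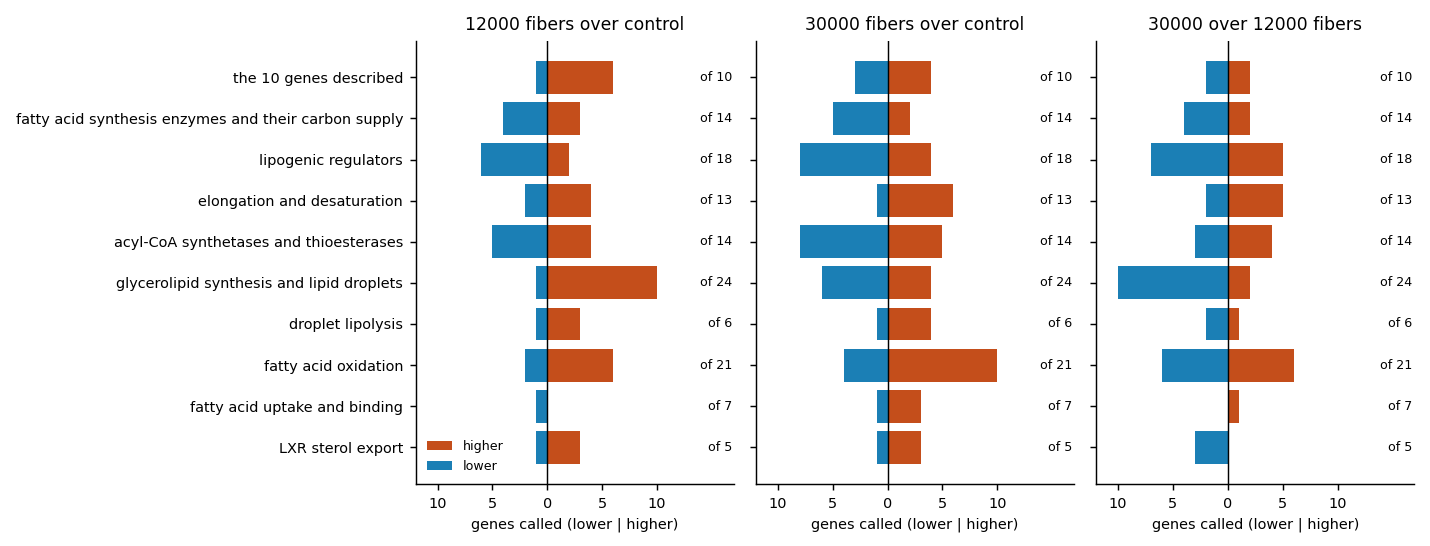
Number of genes called higher (right of 0) and lower (left of 0) for the 10 genes and the 9 lipid lists in the 3 comparisons, with the number tested at the right edge of each panel. The glycerolipid and droplet list has 10 higher and 1 lower at 12000 fibers over control, beside 18.7% and 19.3% of all genes. It has 2 higher and 10 lower at 30000 over 12000 fibers, beside 28.3% and 27.1%.

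Genes whose log2 CPM was most like that of Scd1 over the 12 libraries, among 9870 genes compared, were Rragd (Pearson r = 0.98), Grb10, Slco2a1, Nek6 and Ctsz (r = 0.97 each). Rragd averaged 24.2 ± 4.96 CPM in controls, 68.4 ± 3.71 at 12000 fibers and 50.1 ± 9.55 at 30000 fibers. For Fasn they were Fzd2 (r = 0.95), Hc, Rassf2, Abhd8 and Mat1a (r = 0.93 to 0.94). These correlations describe 12 libraries that fall into 3 dose groups and share their scaling, and they carry no test.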

How the data were processed

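RNA of the epithelial fraction was sequenced from 300 ng of total RNA per library, in 12 libraries. The tools named are HISAT2 2.1.0, cutadapt 1.12, FastQC and bcl2fastq, and the build is mm10, per the submitters' processing notes. The counting program, its annotation and strand setting, and any use of barcodes were not given in the sources used here. Per Ensembl transcript, the authors deposited raw counts, whole numbers with no normalization. Isoforms of a gene overlap and can count the same reads, so 1 transcript stood for each gene, that with the most counts on average in the epithelial libraries. The table holds 71081 named transcripts of 14557 gene symbols. The 12 fibroblast columns run to 107814 entries, 36733 more than there are identifiers, so their rows could not be named and were not used here.

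Counts were filtered with filterByExpr by group, scaled by TMM and fitted with edgeR 4.0.16 (R 4.3.3) over all 12 libraries, with 9 residual degrees of freedom. The quasi-likelihood F test was adjusted by Benjamini-Hochberg over 13759 genes, with a threshold of 0.05. Standard errors were derived from the F statistic, and 95% intervals are the value plus or minus 1.96 SE. CPM divide by the total over representative transcripts times its TMM factor, and CPM per kb divide by the GENCODE M21 transcript length. The fits were tested on simulated data. Alternatives were other size factors, no filter, DESeq2 1.42.0, fits of the compared groups only, summed or all transcripts, totals without mitochondrial and ribosomal protein genes, and each library left out.

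Groups and mouse numbers came from the sample titles, and the labels give 4 isolations from 4 mice, so that libraries of the same number are paired by mouse. Deviations from the group means of same-mouse libraries had a Pearson r across genes of -0.0192 to 0.156. A fit with the mouse as a block was an alternative. The 10 genes and all lists were chosen with earlier results of these data known. From each lipid list up to 4 called genes with the smallest p were available to be named, from each marker list up to 3, and Srebf1, Abca1, Epcam, Col1a1 and Sftpc were always eligible. Lipid genes named from the lists are a selection of these.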

Additional observations from a re-analysis of the deposited data

Results flagged for a closer look

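Over the 10 genes and 3 groups, 30 groups of 4 libraries were checked for a library that stands far from the others, which chance alone would give in about 1 in 20 groups. In 1 of them, Acaca at 12000 fibers, the library of mouse 2 had 121.1 CPM and lay apart from the other 3, which had 110.8 to 112.3 CPM. The gap made up 0.850 of the range of the group. The log2 fold change of Acaca at 12000 fibers over control was 0.35 ± 0.070 (SE, edgeR) with that library in the fit.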

How the results depend on the processing

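The comparison of 12000 fibers with control had 7 of the 10 genes called, 6 higher and 1 lower, under every alternative but DESeq2, which called 8. Without a single library the counts were 7 to 7 at 12000 fibers over control, 6 to 7 at 30000 fibers over control (4 to 4 higher, 2 to 3 lower), and 3 to 7 at 30000 over 12000 fibers (2 to 2 higher, 1 to 5 lower). The last range reached 7 called and 5 lower without the 12000-fiber library of mouse 3 or the 30000-fiber library of mouse 1, and 3 called and 1 lower without the 12000-fiber library of mouse 1. For 30000 over 12000 fibers the number called was also 7 with DESeq2 and with upper quartile factors (5 lower each) and 8 with only those groups in the fit (6 lower).

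With the mouse as a replicate block, 4 genes were lower and 6 called between 30000 and 12000 fibers, since Acly and Elovl5 passed. The block changed no other call of the 10 genes.

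With every transcript in the fit, the median of all genes was 0.31 at 30000 fibers over control and 0.33 at 30000 over 12000 fibers. At 30000 fibers over control 8 of the 10 genes were then higher and 0 lower, and Acly (0.16) and Elovl5 (0.070) changed sign. Between the doses 4 were then higher and 1 lower, and Acaca (0.28), Acly (0.18), Acsl4 (0.17), Elovl5 (0.15), Plin2 (0.097) and Pnpla2 (0.14) changed sign. Acaca (adjusted p = 0.00259) and Acly (adjusted p = 0.0285) were among those called higher. The cause was not tested. Plin2 at 30000 fibers over control was -0.077 with summed counts.

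Values near 0 changed sign without a call. Acly at 12000 fibers over control was 0.0022 without mitochondrial and ribosomal protein genes, and between -0.055 and 0.018 when single libraries were left out. Elovl6 at 30000 fibers over control was -0.0096 with upper quartile factors, and between -0.15 and 0.10 when single libraries were left out. The libraries at 30000 fibers have the lowest totals.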
